A study of Homo sapiens with 2 samples.

Results

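The 9 EPHA receptor genes EPHA1, EPHA2, EPHA3, EPHA4, EPHA5, EPHA6, EPHA7, EPHA8 and EPHA10 were taken by name from the 19881 protein-coding genes with a GRCh38 position, and OTX2 peaks were assigned to each gene record extended by 50 kb on both sides. Of 137412 peaks in the list, 145 overlapped these windows. The peaks come from D283, an established human medulloblastoma cell line, grown as untreated tumorspheres that express OTX2, with EGF and bFGF at 20 ng/ml each, and fixed in 1% formaldehyde for 10 min. There was 1 OTX2 ChIP library, made with an OTX2 antibody, and 1 input library of the same line made without antibody. With 1 library of each kind no value has a replicate error and no test between conditions was possible. The ChIP library had 84980793 fragments, of which 61259377 remained after duplicates were removed, and the input 32292980, of which 22521186 remained. The peak list holds no expression values, so neither the cell type nor the level of any EPHA gene could be checked from it.

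EPH receptors are receptor tyrosine kinases of the cell surface that bind ephrins on neighbouring cells. The A class mainly binds ephrin A ligands, which are held in the membrane by a lipid anchor, and steers growth cones, cell sorting and tissue boundaries in the developing brain. OTX2 is a homeodomain transcription factor of the anterior brain that binds the sequence TAATCC and close variants. In ChIP-Seq, DNA crosslinked to OTX2 is pulled down and sequenced, and a peak marks a place where it exceeds the input.

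OTX2 peaks lay along most EPHA genes, and most of those in the windows had their summit in an intron. A peak was present in the window of 8 of the 9 genes, where 94.1% of all protein-coding genes had one, so that presence alone is close to the background. EPHA1 was the gene without a peak. Near the transcription start site (TSS), between 5 kb before and 2 kb after the 5′ end of the gene record, 6 of the 9 genes had a peak (EPHA2, EPHA3, EPHA4, EPHA5, EPHA6 and EPHA7), against 57.2% of all protein-coding genes. Counting only peaks with a fold enrichment of at least 5 left 2 of these genes, EPHA2 and EPHA7. The share of all protein-coding genes at this threshold was not counted. The median fold enrichment was 4.41 for the EPHA TSS peaks, beside 5.31 for all peaks in the TSS window of a protein-coding gene. Of the 145 peaks, 10 overlapped this TSS window, 97 had their summit in an intron, 1 in an exon and 37 were distal, in the flanks of the gene. The intronic share was 66.9%, beside 44.1% of all peaks, and the TSS share 6.90%, beside 11.0%. The classes of all peaks count any protein-coding gene, while those of the EPHA peaks count the EPHA gene alone. A further 6 EPHA peaks, classed as distal, overlapped the TSS window of another protein-coding gene. The TSS shares are therefore not directly comparable. The EPHA windows are centred on genes, and the gene records fill 70.5% of their length and held 69.7% of the summits, so the intronic share is close to the share of gene sequence in the windows.

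**Figure D1:**
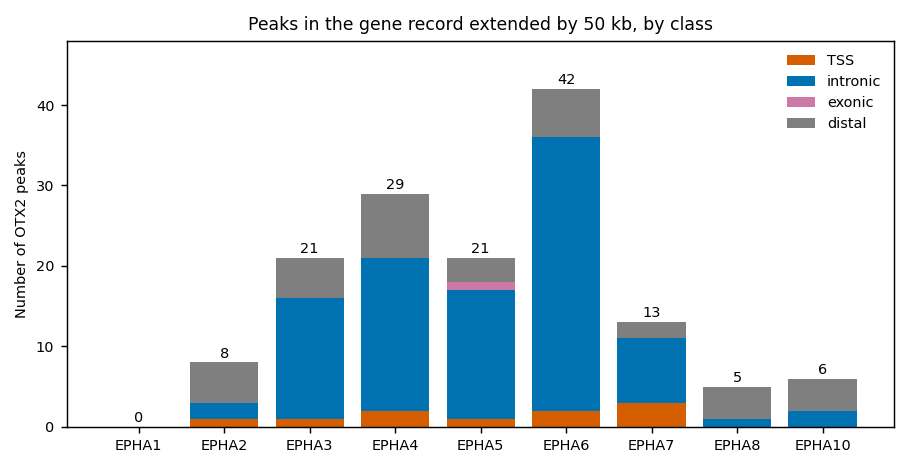
Number of OTX2 peaks in the gene record of each EPHA gene extended by 50 kb, stacked by class (TSS, intronic, exonic, distal). EPHA6 had 42 peaks, 34 of them intronic, and EPHA1 had 0.

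The height of a peak is given as the number of ChIP fragments over its summit. The deposited pileup is this number times 0.735, and every pileup in the list was a whole multiple within 0.005. Poisson 95% intervals in brackets cover counting error only. The lowest peak in the list had 15 fragments and the median peak 53, so weaker sites are not in the list. The fold enrichment given beside a height is that of the deposited file, over the local input. At 33 of the 145 EPHA peaks (22.8%) the local input was at its lowest value, which is set by the average input over the genome, as it was at 26.4% of all peaks.

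The TSS peaks of the EPHA genes were low. Their heights ran from 21 to 55 fragments with a median of 34, and 1 of the 10 exceeded the median of all peaks. Over all peaks in the TSS window of a protein-coding gene the median was 45 fragments. The quartiles of these peaks were 32 and 72 fragments, so the EPHA median lay between them, near the lower. For the 6 genes with a TSS peak, the higher or only TSS peak lay under the median of all genes with a TSS peak (54 fragments) in 5 cases. In none of them was a TSS peak the highest of the window. Over all genes with a TSS peak this was so in 15.2%, so none among 6 genes is close to the background. The windows of these 6 genes held 8 to 42 peaks, and those of all 9 EPHA genes had a median of 13. Over all protein-coding genes, with or without a TSS peak, the median was 7. For the genes with a TSS peak alone it was not counted. The part of the number of peaks in the result was not tested. The intronic peaks had a median of 57 fragments and reached 268, beside a median of 54 for all intronic peaks. Distal peaks had a median of 49 fragments and reached 249, beside a median of 54 for peaks outside protein-coding genes and their TSS windows. These sets are not fully alike, since the distal peaks include the 6 in the TSS window of another gene.

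**Figure D2:**
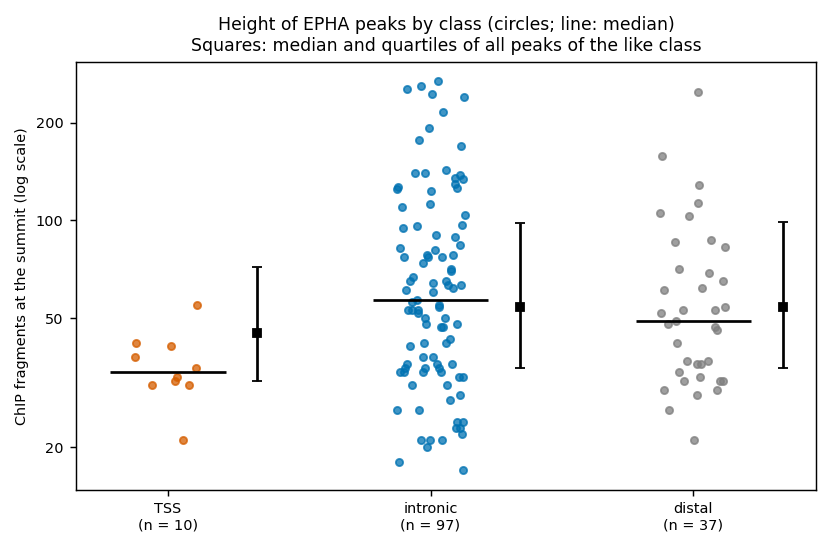
Height of each TSS, intronic and distal EPHA peak in ChIP fragments at its summit (log scale), with the median of the class as a line (the single exonic peak is left out). The squares with bars give the median and quartiles over all peaks of the nearest class, set by any protein-coding gene. For distal peaks these are the peaks outside protein-coding genes and their TSS windows, while some EPHA distal peaks lie in the TSS window of another gene. The 10 TSS peaks lie between 21 and 55 fragments, while intronic peaks reach 268.

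At EPHA2, EPHA3, EPHA5 and EPHA7 the summit of a TSS peak lay 82 to 171 bp upstream of the start, and the sequence there was read from the RefSeq promoter table (GRCh38.p14). It is shown for these genes and for EPHA1, which had no peak, because the letters searched for occur in 3 of the 5. Each sequence runs 5′ to 3′ along the gene's strand up to the base before the gene record and holds no transcribed base. Capitals mark TAATCC or TAATCT, or their reverse complements GGATTA and AGATTA. EPHA2 is on chromosome 1 (chr1:16156070-16156319, minus strand), EPHA5 on chromosome 4 (chr4:65670496-65670739, minus), EPHA3 on chromosome 3 (chr3:89107371-89107620, plus), EPHA7 on chromosome 6 (chr6:93419688-93419809, minus) and EPHA1 on chromosome 7 (chr7:143408857-143409106, minus).
EPHA2: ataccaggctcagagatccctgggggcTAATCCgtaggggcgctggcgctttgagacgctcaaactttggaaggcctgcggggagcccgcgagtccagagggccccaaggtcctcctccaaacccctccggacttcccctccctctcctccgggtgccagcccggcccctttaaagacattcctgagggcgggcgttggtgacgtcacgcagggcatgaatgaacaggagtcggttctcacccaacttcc
EPHA5: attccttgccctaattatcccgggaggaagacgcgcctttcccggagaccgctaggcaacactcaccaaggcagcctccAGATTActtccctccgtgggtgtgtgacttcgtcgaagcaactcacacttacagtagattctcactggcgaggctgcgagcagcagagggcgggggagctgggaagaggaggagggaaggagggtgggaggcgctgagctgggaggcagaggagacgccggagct
EPHA3: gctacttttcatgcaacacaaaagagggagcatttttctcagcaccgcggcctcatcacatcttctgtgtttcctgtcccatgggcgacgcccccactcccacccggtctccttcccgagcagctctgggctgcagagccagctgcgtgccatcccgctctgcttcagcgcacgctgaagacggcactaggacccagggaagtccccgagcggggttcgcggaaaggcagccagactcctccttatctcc
EPHA7: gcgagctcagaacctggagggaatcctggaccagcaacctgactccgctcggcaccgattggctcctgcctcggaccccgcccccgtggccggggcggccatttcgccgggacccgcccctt
EPHA1: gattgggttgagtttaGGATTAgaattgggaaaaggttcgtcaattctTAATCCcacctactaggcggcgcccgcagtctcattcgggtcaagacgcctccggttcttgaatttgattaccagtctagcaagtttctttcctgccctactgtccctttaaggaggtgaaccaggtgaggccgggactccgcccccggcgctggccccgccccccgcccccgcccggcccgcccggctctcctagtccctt

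The EPHA2 promoter held a TAATCC that began 223 bp upstream of the TSS, inside the TSS peak and 122 bp from its summit. The EPHA5 promoter held a TAATCT on the opposite strand, 165 bp upstream of the TSS and 9 bp from the summit of the TSS peak. EPHA1 had TAATCC on the opposite strand 234 bp upstream and on the gene's own strand 202 bp upstream, but no peak. In the stretches shown for EPHA3 and EPHA7 neither motif occurs, although a summit lies in each. The promoter table matched 8 of the 9 genes with 13 records of 300 bases, from 250 bases before to 50 after a RefSeq start. EPHA10 was not matched. Of the 13 records, 3 held a motif on either strand, where 12.8% of all 35116 records do. A summit lay inside 5 of the 13, beside 17.0% of all records, and 2 of these 5 held a motif, beside 17.4% of all records with a summit. A match in these letters is a description of the sequence and not a measured binding site.

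EPHA2, a receptor of epithelia that is often overproduced in carcinomas and in glioblastoma, occupies bases 16124337 to 16156069 of chromosome 1 (minus strand). Its TSS peak, with the summit 98 bp upstream of the TSS, had 33 fragments (22.7 to 46.3) at a fold enrichment of 5.07. In intron 1, 2.96 kb downstream of the TSS, a peak of 125 fragments (104 to 149) had a fold enrichment of 18.6, the largest of this gene. Another intron 1 peak, at 4.76 kb, had 36 fragments. The highest of the 8 peaks lay beyond the gene, 19.3 kb past its 3′ end, with 158 fragments (134 to 185) at a fold enrichment of 16.7. The intervals of this peak and of the higher intron 1 peak overlap. The next in height, with 69 fragments (53.7 to 87.3), also lay downstream, 6.32 kb past the 3′ end.

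EPHA3, a receptor of axon guidance that is also found on glioblastoma cells, occupies bases 89107621 to 89482134 of chromosome 3 (plus strand) and had 21 peaks, 15 of them intronic. The TSS peak, 82 bp upstream, had 31 fragments (21.1 to 44) at a fold enrichment of 2.38, at or above that of only 0.932% of all peaks. The local input at this peak, read back from pileup and fold enrichment on the scale of the pileup, was 9.0, where the lowest value in the list was 3.99. What part this input has in the low fold was not tested. The highest peak of the whole family lay in intron 3 of EPHA3, 227 kb from the TSS, with 268 fragments (237 to 302) at a fold enrichment of 22. Its height equalled or exceeded that of 97.7% of all peaks. Intron 3, of 130 kb, held 9 of the 15 intronic peaks. The next highest was at 141 kb, with 140 fragments (118 to 165) at a fold enrichment of 6.93, where the local input was 14. It was followed by a peak at 9.93 kb in intron 1, with 135 fragments (113 to 160) at a fold enrichment of 14.2. Just past the 3′ end, by 336 bp, a peak of 87 fragments had a fold enrichment of 13.

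EPHA4, which repels growth cones and binds ephrins of both classes, occupies bases 221418027 to 221574202 of chromosome 2 (minus strand). It was the most densely covered member, with 29 peaks or 11.3 per 100 kb of window, a density at or above that of 91.8% of protein-coding genes. Its highest peak was upstream and just outside the TSS window, 6.57 kb before the TSS, with 249 fragments (219 to 282). The fold enrichment of this peak, 36.1, was the largest in the family and at or above 99.4% of all peaks. Intron 8 held a peak of 244 fragments (214 to 277) at 119 kb and intron 14 a peak of 215 fragments (187 to 246) at 142 kb. These intervals overlap, so the order of the 3 peaks is not resolved by counting error. Between 119 and 147 kb downstream of the TSS, in introns 8 to 15, 8 peaks of 42 to 244 fragments lay within 30 kb, the largest number in a stretch of this length at any EPHA gene, a stretch chosen after its values were seen. The TSS peaks were low, with 38 fragments (26.9 to 52.2) at 1.03 kb and 42 fragments (30.3 to 56.8) at 1.91 kb downstream. The canonical transcript starts 1898 bp downstream of the gene record's 5′ end, so that the peak at 1909 bp had its summit next to that start.

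EPHA5, a receptor for topographic mapping of retinal and other axons, occupies bases 65319563 to 65670495 of chromosome 4 (minus strand). It had 21 peaks, of which 16 were intronic. The TSS peak, 171 bp upstream, had 31 fragments (21.1 to 44) at a fold enrichment of 4.76. A single high peak stood in intron 3, at 173 kb, with 254 fragments (224 to 287) at a fold enrichment of 20.9. The other peaks of the gene had at most 110 fragments (90.4 to 133), a value reached in intron 8 at 290.3 kb, so the intervals of the highest and the next do not overlap. An upstream peak, 33.0 kb before the TSS, had 86 fragments (68.8 to 106). Intron 1, of 26.1 kb, held 5 peaks of 31 to 82 fragments, and the 80.8 kb downstream of the last of these held none. The only exonic peak of the family was in the 3′ untranslated part of exon 17, the final exon of the canonical transcript, with 47 fragments (34.5 to 62.5).

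EPHA6, a receptor expressed mainly in the nervous system, is the longest member, 947 kb at bases 96814581 to 97761532 of chromosome 3 (plus strand). It had the most peaks, 42, of which 34 were intronic, but per 100 kb it had 4.01, below the median of 5.12 over protein-coding genes. Both TSS peaks were low, with 32 fragments (21.9 to 45.2) at 518 bp upstream and 35 fragments (24.4 to 48.7) at 1.32 kb upstream. The highest peaks lay in intron 2 at 94.3 kb, with 260 fragments (229 to 294) at a fold enrichment of 32.0, and in intron 3 at 195.1 kb, with 240 fragments (211 to 272) at a fold enrichment of 35.2. A neighbouring peak in intron 3, at 197 kb, had 169 fragments (144 to 196). Of the 34 peaks inside the gene record, 27 lay nearer its 5′ end and 7 nearer its 3′ end. EPHA4 (10 and 11) and EPHA5 (7 and 10) went the other way, and over the 9 genes the numbers were 64 and 37. The split over all protein-coding genes was not counted. At EPHA6 a stretch of 181 kb, from 579 to 760 kb, held no peak. The RefSeq start of a shorter EPHA6 transcript, 625 kb downstream of the TSS, lies in this stretch. Past the 3′ end, 2 distal peaks, of 48 and 71 fragments, overlapped the TSS window of ARL6, a small GTPase of cilia.

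EPHA7, a receptor of the developing cortex and of axon mapping, occupies bases 93240020 to 93419687 of chromosome 6 (minus strand) and had 13 peaks. It had the most TSS peaks, 3. The peak 4.04 kb upstream had 55 fragments (41.4 to 71.6) at a fold enrichment of 8.31, the highest TSS peak in the family. The peak at 96 bp upstream had 41 fragments (29.4 to 55.6). The lowest, of 21 fragments, only reached into the window, since its summit lay 2030 bp downstream. The highest peak was in intron 3, at 46.0 kb, with 193 fragments (167 to 222) at a fold enrichment of 17.9, followed by one in intron 5, at 102 kb, with 126 fragments (105 to 150). These intervals do not overlap. A further intron 3 peak, at 57.6 kb, had 78 fragments (61.7 to 97.3).

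EPHA8, EPHA10 and EPHA1 had no TSS peak. EPHA8, a receptor of the developing midbrain, occupies bases 22563489 to 22603595 of chromosome 1 (plus strand). Its 5 peaks included a single one inside the gene, in intron 3 at 19.8 kb, with 140 fragments (118 to 165) at a fold enrichment of 20.8. The others had 32 to 62 fragments. EPHA10, which lacks kinase activity, occupies bases 37713880 to 37765133 of chromosome 1 (minus strand) and had 6 peaks of 26 to 78 fragments. Its intronic peaks had 78 fragments (61.7 to 97.3) in intron 5 and 60 fragments (45.8 to 77.2) in intron 8. The next in height, with 46 fragments (33.7 to 61.4), lay 43.1 kb upstream of the TSS. All 4 of its distal peaks overlapped the TSS window of another gene, C1orf109 and CDCA8 past the 3′ end and YRDC and C1orf122 upstream. Counted at any annotated transcript start, 1 of the 11 EPHA10 transcripts had a peak in its TSS window.

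EPHA1, the founding member of the family and mainly a receptor of epithelia, occupies bases 143390289 to 143408856 of chromosome 7 (minus strand). Its window of 119 kb held 0 peaks, as did the windows of 5.91% of protein-coding genes. The nearest summits lay 81.3 kb downstream of the TSS, with 54 fragments (40.6 to 70.5), and 90.8 kb upstream, with 75 fragments (59.0 to 94.0). With 100 kb on each side 5 peaks were found. Over chromosome 7 as a whole there were 2.73 peaks per 100 kb, beside 4.79 to 5.49 on the other chromosomes that carry EPHA genes. The part of this lower density in the empty EPHA1 window was not tested.

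**Figure D3:**
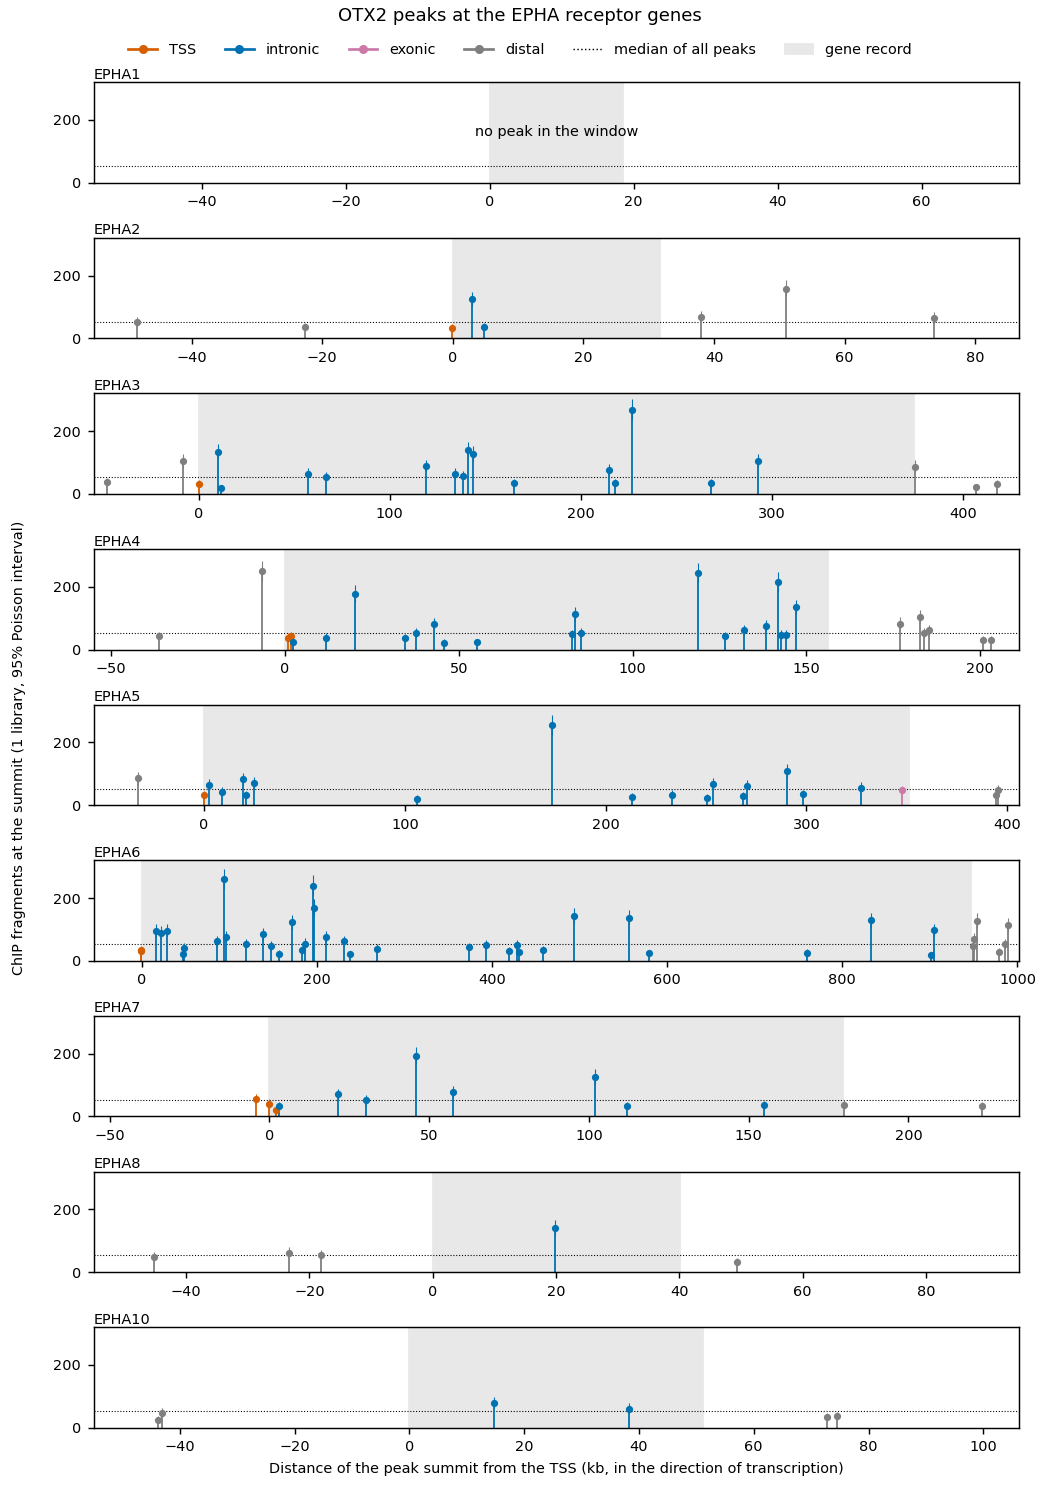
OTX2 peaks at the 9 EPHA genes, 1 panel a gene. The horizontal axis is the distance of the summit from the TSS in kb and the vertical axis the ChIP fragments at the summit with 95% Poisson intervals, coloured by class. Grey marks the gene record and the dotted line the median of all peaks (53 fragments), and the highest peaks, up to 268 fragments, stand away from the TSS.

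By their highest peak, the genes were ordered EPHA3 (268 fragments), EPHA6 (260), EPHA5 (254), EPHA4 (249), EPHA7 (193), EPHA2 (158), EPHA8 (140) and EPHA10 (78), with EPHA1 last. From EPHA3 to EPHA10 in this order, the highest was taken from 21, 42, 21, 29, 13, 8, 5 and 6 peaks. The part of the number of peaks in the order was not tested. The intervals of EPHA3, EPHA6, EPHA5 and EPHA4 overlap each other. Further down the order, those of EPHA4 and EPHA7, of EPHA7 and EPHA2, and of EPHA2 and EPHA8 also overlap, so that neighbours are not resolved. The interval of EPHA10 lies wholly below that of EPHA8. These heights are not set against the local input, and the largest fold enrichment of each gene gave another order. It ran EPHA4 (36.1), EPHA6 (35.2), EPHA3, EPHA5 (20.9), EPHA8 (20.8), EPHA2 (18.6), EPHA7 (17.9) and EPHA10. At EPHA6 and EPHA2 the largest fold enrichment belonged to a peak other than the highest. The part of the local input in the order by height was not tested.

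Long genes held most of the peaks. The 5 longest genes, EPHA3 to EPHA7, of at least 156 kb, held 126 of the 145 peaks. The 4 shortest, of at most 51.3 kb, held 19. The 4 longest, EPHA3, EPHA5, EPHA6 and EPHA7, held 66.9% of the peaks in 73.8% of the window length. Within these groups the number of peaks did not follow length, since EPHA4 had more than the longer EPHA3, EPHA5 and EPHA7, and EPHA2 more than the longer EPHA8 and EPHA10. Per 100 kb of window, the family had 4.75 peaks in all, close to the 4.56 per 100 kb of chromosomes 1 to 22, X and Y. Single genes ran from 0 at EPHA1 and 3.57 at EPHA8 to 6.07 at EPHA2 and 11.3 at EPHA4. EPHA4 stood apart from the others, while its chromosome had 4.79 peaks per 100 kb.

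**Figure D4:**
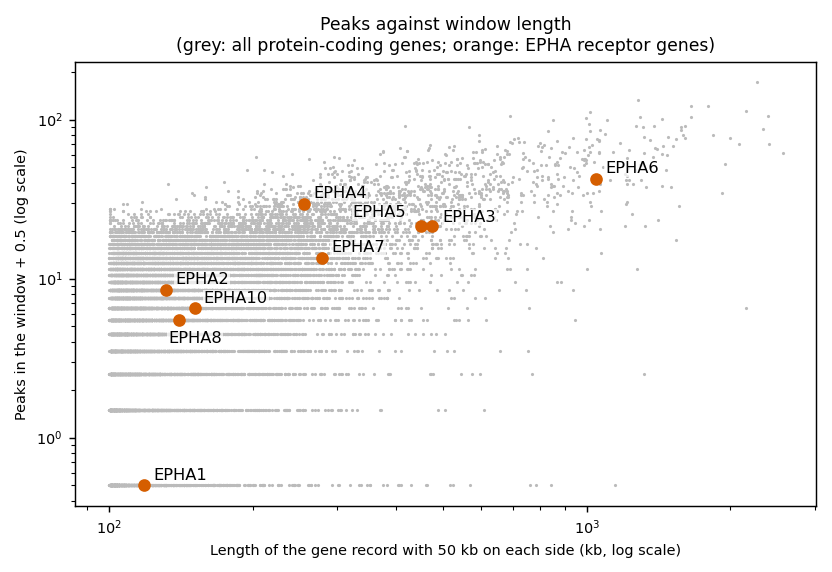
Number of OTX2 peaks (plus 0.5, log scale) against the length of the gene record with 50 kb on each side (log scale), for all protein-coding genes in grey and the EPHA genes in orange. EPHA4, with 29 peaks, lies above EPHA7, with 13, at a like length, and EPHA1 lies at 0 peaks.

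Ligands, EPHB receptors and signalling genes of the same pathway were counted in the same way, to be read against the 57.2% of all protein-coding genes with a TSS peak. A TSS peak was present at 4 of 5 ephrin A ligands (80%), with the largest fold enrichments at EFNA5 (11.1), EFNA3 (10.1) and EFNA1 (5.94). Of these 4 ligands, EFNA1, EFNA3 and EFNA4 lie on chromosome 1. A TSS peak was present at 2 of 3 ephrin B ligands (66.7%), EFNB1 (4.63) and EFNB2 (3.61). Of 5 EPHB receptors 3 (60%) had a TSS peak, a share near the background as for the ephrin B ligands, namely EPHB3 (8.38), EPHB1 (5.05) and EPHB6 (3.00). Of 39 downstream signalling genes 31 (79.5%) had one, led by CHN1, a Rac GTPase-activating protein of EPHA4 signalling (21.9), ITSN1, an exchange factor and endocytic scaffold (18.9), and SIPA1L1, a Rap GTPase-activating protein (15.0). The median height of the highest TSS peak was 34 fragments in the EPHA genes, 33 in the EPHB genes, 55 in the ephrin A ligands, 34 in the ephrin B ligands and 66 in the signalling genes, beside 54 over all protein-coding genes with a TSS peak. Differences between these lists, and between each list and all protein-coding genes, were not tested.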

How the data were processed

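OTX2 ChIP-Seq of D283 tumorspheres comprised 1 ChIP library and 1 input library. Alignment to GRCh38 by the authors used Bowtie2 2.2.4, and they called peaks with MACS2 2.1.0.20140616 on paired fragments at a q-value cutoff of 0.05, with the larger library scaled to the smaller. For each peak the deposited file gives the pileup at the summit, a coverage signal, the fold enrichment, a ratio of pileup to local input with 1 added to both, and the −log10 q-value. The study states that blacklisted regions were masked.

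From these values, pileups were divided by the worth of 1 ChIP fragment (0.735), with exact Poisson 95% intervals. Gene records were those of GENCODE, at the GRCh38 positions recorded in the annotation, and a peak belonged to a window if at least 1 bp overlapped. A peak was TSS if it overlapped the TSS window, otherwise intronic or exonic by its summit in the gene record, numbered by the canonical transcript, otherwise distal. A percentile is the share of peaks or genes at or below a value. Promoter sequence came from RefSeq (GRCh38.p14), since the genome at hand was of another build and peaks could not be read from it.

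All 9 EPHA genes are named. Their highest peak, every TSS peak and, for genes with over 5 peaks, the 3 highest are given, with others by range, and a few were added after their values were seen. Of each other list the 3 genes with the largest fold enrichment near the TSS are named, as is a gene whose TSS window a peak in an EPHA window overlaps. The members and lists were chosen with earlier results of these data known. Counting was tested on simulated peaks. Intervals were computed with scipy 1.17.1, tables with pandas 2.3.3 and numpy 2.4.6, and plots with matplotlib 3.10.9, under Python 3.11.15.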

Additional observations from a re-analysis of the deposited data

How the results depend on the processing

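The number of EPHA genes with a peak in the window was 8 or 9 over 9 alternatives, and EPHA1 was added with 100 kb on each side. The number with a TSS peak was 2 to 7 over 10 alternatives, and EPHA10 was added when any transcript start was used. Requiring a fold enrichment of at least 5 left 92 peaks, 3.02 per 100 kb, and 2 genes with a TSS peak, EPHA2 and EPHA7. The full list gave 145, 4.75 and 6. The shares of all peaks and all genes left at this threshold were not counted. The other alternatives gave 106 to 185 peaks, the ends of this range coming from the gene record alone and from 100 kb on each side. Intronic peaks numbered 65 to 96 over 5 alternatives. The highest pileup of EPHA2 was 91.91 instead of 116.17 when the summit had to lie in the gene record or its TSS window. Leaving out peaks in the TSS window of another gene, an alternative chosen after seeing the data, left 139 peaks. The search for TAATCC and TAATCT inside peaks was not run, since the genome at hand was of another build. No paired analysis was possible because the study had a single ChIP library and a single input library. With 1 ChIP library the intervals cover counting error only, peaks under 15 fragments are not in the list, and a window without a peak, as at EPHA1, says only that no peak passed the cutoff at this depth.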
